A study of Mus musculus with 23 samples.

Results

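The Janus kinases (JAKs) and the signal transducers and activators of transcription (STATs) carry the signal of cytokine receptors to the nucleus. JAKs are tyrosine kinases bound to the cytoplasmic tails of the receptors, and STATs are transcription factors which, once phosphorylated by a JAK, form dimers and bind DNA. In macrophages, LPS does not engage a JAK-coupled receptor itself but leads to the release of interferon β and interleukins, which in turn signal through JAKs and STATs. The genes described here are *Jak1*, *Jak2*, *Jak3*, *Stat2*, *Stat3*, *Stat4*, *Stat5a*, *Stat5b* and *Stat6*, i.e. the 9 genes of a fixed list of names, of 26014 genes tested. They were found through the accession of the array probes, which gave 14 probes, with several probes for 4 of the genes (*Jak3*, *Stat3*, *Stat5b* and *Stat6*).

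Total RNA was taken from bone marrow-derived macrophages (BMDM), which had been grown from the femoral marrow of male C57BL/6 mice (for the knockouts C57BL/6J, per the methods) with M-CSF for 9 days, and was measured with a single dye on 23 Agilent arrays, with 1 array per sample. The BMDM were wild-type (wt, mice of 12 to 13 weeks), deficient in the p38 MAPK-activated kinase MK2 (MK2-/-, 10 to 13 weeks) or deficient in both MK2 and MK3 (MK2/3-/-, 11 to 14 weeks), with the kinases missing in all cells of the animals and not only in macrophages. Cells of each genotype stayed in medium or received LPS (100 ng/ml) and were lysed after 120 min, which gave 6 groups of 4 arrays, except for MK2-/- BMDM in medium with 3. The labels give each sample a replicate number and the age of the mouse, and LPS and medium samples that share both are taken here as 1 culture, except that MK2-/- medium replicate 3 was joined to LPS replicate 4, with which it shares the age. The p-values measure the spread between samples of a group. Several questions follow from this design for the JAK and STAT transcripts, namely whether they change after LPS, whether their levels differ between genotypes and whether their response to LPS does. The genotypes were visible in the deleted genes. The log2 signal of *Mapkapk2*, which encodes MK2, was 14.77 ± 0.49 (SD, n = 4) after LPS in wt cells, compared with 11.96 ± 0.28 (SD, n = 4) in cells without MK2 and 11.76 ± 0.34 (SD, n = 4) in those without either kinase. For *Mapkapk3*, which encodes MK3, the wt value after LPS was 14.01 ± 0.24 (SD, n = 4), that of MK2-/- BMDM was 13.98 ± 0.14 (SD, n = 4), and that of MK2/3-/- BMDM 10.70 ± 0.26 (SD, n = 4).

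All levels are log2 signals after quantile normalization over the 23 arrays, and a difference of 1 between groups stands for a doubling of the signal. A level depends on the probe, so levels are compared only between samples. Each of the 14 probes was well above background on all 23 arrays. The share of all probes well above background ranged from 47.5% to 69.1%, with the lowest and the highest value both among the MK2/3-/- arrays in medium (replicates 1 and 2). After LPS it was 56.2% to 60.8% in wt, 49.6% to 52.5% in MK2-/- and 48.5% to 55.4% in MK2/3-/- BMDM. The wt LPS arrays thus lay above those of both knockouts, and the part of this in the genotype comparisons was not tested. Precision is limited by how many arrays there are per group. All arrays of a genotype lay on a slide of their own, so that genotype and slide cannot be told apart. On each slide the medium arrays lay in row 1 and the LPS arrays in row 2, so that treatment and row cannot be told apart either. For the tests, one limma model was fitted to the 23 arrays, and an adjusted p (Benjamini-Hochberg, all 26014 genes) under 0.05 was taken as a call. A gene that passed is said to have risen or fallen. A two-sided exact permutation test, whose smallest possible p is 0.0286 for 4 arrays against 4 as well as 4 against 3, was added for single genes. In bulk RNA, a change in the number of cells of a type cannot be told apart from a change in RNA per cell.

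The cells were macrophages by their transcripts. Of the 9 measured macrophage markers, 8 were well above background on all arrays, among them *Csf1r*, which encodes the M-CSF receptor, with a log2 signal between 18.25 and 18.74, and *Adgre1*, a surface marker of mature macrophages, between 14.95 and 16.20. *Cd163* was well above background on no array. The T cell genes *Cd3d* and *Cd8a* were well above background on no array either, whereas 4 of the 14 lymphocyte markers were on all of them, among them *Cd3e* (9.66 to 11.15). The log2 of the summed signal of the lymphocyte markers had a median of 11.01 in wt BMDM in medium and 11.51 after LPS, 10.94 and 11.56 in MK2-/- BMDM, and 10.95 and 12.94 in MK2/3-/- BMDM. Of these 14 genes *Lck* and *Klrb1c* rose with LPS in all genotypes, *Lck* by 2.53, 2.97 and 4.76 in wt, MK2-/- and MK2/3-/- BMDM. In MK2/3-/- BMDM after LPS, *Lck* made up 19.8% to 83.3% of the summed lymphocyte signal. Of the 6 dendritic cell markers, *Zbtb46* rose by 5.49, 5.40 and 5.77 and *Ccr9* by 2.46, 2.46 and 2.57. Only *Flt3* of these 6 was well above background on all arrays, and only *Clec9a* on none. Of the 10 granulocyte markers measured, 6 were well above background on all arrays and 2 on none. For the 10 stromal and erythroid markers these counts were 3 and 1. None of the granulocyte, stromal and erythroid markers passed the test with LPS. Among the granulocyte markers, *Elane* ranged from 10.78 to 11.93 and *S100a9* from 7.16 to 13.61 over the arrays. *Col1a2*, a collagen gene of fibroblasts, ranged from 8.69 to 16.35 over the arrays. The log2 of the summed stromal and erythroid signal had a median of 14.71 in medium and 14.67 after LPS in wt, 11.27 and 12.13 in MK2-/- and 12.18 and 12.30 in MK2/3-/- BMDM, with overlap between the genotypes. Whether cells other than macrophages had a part in the changes below was not tested.

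Among the 9 genes, *Jak2* and *Stat5a* rose strongly with LPS in all 3 genotypes. *Stat2*, *Stat3* and *Stat4* lay in between, with mean differences from 0.80 to 1.46, whereas *Jak1*, *Jak3*, *Stat5b* and *Stat6* differed by 0.07 to 0.67 between medium and LPS. No member fell. In wt BMDM 2 of 9 passed the test, compared with 8.26% of all genes that rose and 8.89% that fell. Without wt LPS replicate 4, the count was 4 of 9, with *Stat2* and *Stat3* added. In MK2-/- BMDM 3 of 9 rose, with 8.48% of all genes rising and 10.1% falling, and in MK2/3-/- BMDM 7 of 9 rose, with 11.9% rising and 12.9% falling. With the test named in the methods, adjusted in the same way, 4 of 9 passed in MK2/3-/- BMDM, without *Jak3*, *Stat3* and *Stat4*. The 9 genes had a median log2 difference of 0.87 (wt), 0.80 (MK2-/-) and 1.42 (MK2/3-/-), whereas the median of all genes tested was 0.01, -0.01 and -0.02. When the culture was taken into account as a block, 5 instead of 3 genes rose in MK2-/- BMDM, with *Stat2* (adjusted p = 0.0473) and *Stat4* (adjusted p = 0.0302) added, and *Jak1* was added in MK2/3-/- BMDM (adjusted p = 0.0215).

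**Figure D1:**
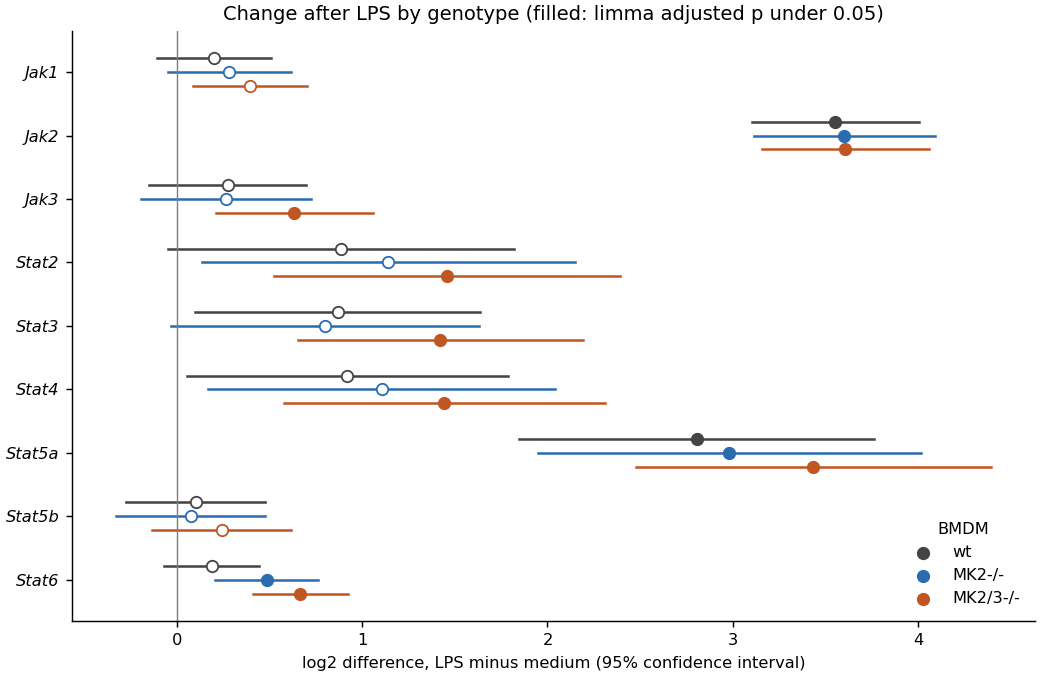
Log2 difference between LPS and medium (x axis) of the 9 JAK and STAT genes in wt, MK2-/- and MK2/3-/- BMDM, with 95% confidence intervals as lines and filled points where the limma adjusted p was under 0.05. *Jak2* and *Stat5a* stand at 2.81 to 3.61 in all genotypes, and the remaining genes at 1.46 or below.

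*Jak2* encodes the kinase that serves, among others, the receptors for GM-CSF, interleukin 3, erythropoietin and interferon γ. Its log2 signal in wt BMDM was 10.84, 11.18, 11.40 and 11.53 in medium and 14.47, 15.30, 14.97 and 14.42 after LPS. The MK2-/- values were 11.34, 11.43 and 11.82 in medium and 14.98, 15.55, 15.05 and 14.94 after LPS. The MK2/3-/- values were 11.45, 11.44, 11.56 and 11.70 in medium and 15.23, 15.52, 15.13 and 14.71 after LPS. All LPS arrays lay far above all medium arrays. *Jak2* (NM_008413) rose 11.7-fold in wt (log2 difference 3.55, SE 0.22, limma adjusted p = 4.3e-10), 12.1-fold in MK2-/- (log2 difference 3.60, SE 0.23, adjusted p = 1.42e-09) and 12.2-fold in MK2/3-/- macrophages (log2 difference 3.61, SE 0.22, adjusted p = 3.51e-10). The exact permutation p was 0.0286 in each genotype, the smallest possible. The response of *Jak2* differed between MK2/3-/- and wt BMDM by 0.05 with a 95% confidence interval from -0.58 to 0.69.

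The mean differences of *Jak1* and *Jak3* between medium and LPS, from 0.20 to 0.63, were smaller than those of *Jak2*, without a test between genes. *Jak1* encodes the kinase shared by the interferon receptors and the receptors with the gp130 chain. It was at 13.17 ± 0.22 (SD, n = 4) in wt BMDM in medium and 13.38 ± 0.23 (SD, n = 4) after LPS, with overlap between the groups. All 4 LPS arrays of MK2-/- BMDM (13.53 to 13.69) lay above all 3 medium arrays (13.23 to 13.43), but the difference of 0.28 did not pass (adjusted p = 0.254 by limma). It passed with the test named in the methods (adjusted p = 0.0489). In MK2/3-/- BMDM the difference was 0.40 (SE 0.15, adjusted p = 0.0553). This was just short of the threshold, and it passed when any of 5 single arrays was left out and under several other settings, with differences between 0.40 and 0.74. *Jak3*, which encodes the partner of the common γ chain of the interleukin 2 receptor family, was at 7.80 ± 0.31 (SD, n = 4) in medium and 8.43 ± 0.17 (SD, n = 4) after LPS in MK2/3-/- BMDM. It rose there by 0.63 (SE 0.20, adjusted p = 0.0261), with 4 of 4 LPS arrays above all medium arrays. This call was lost without MK2/3-/- LPS replicate 1 (0.56, adjusted p = 0.0827) or 2 (0.64, adjusted p = 0.0531) and without medium replicate 3 (0.55, adjusted p = 0.0856) or 4 (0.57, adjusted p = 0.0771). It was also lost with scaling to the 75th percentile (0.60, adjusted p = 0.0703), with normexp (0.52, adjusted p = 0.0554), with the mean over all probes (0.56, adjusted p = 0.0588) and with the test named in the methods (adjusted p = 0.0582). In wt and MK2-/- BMDM the difference was 0.27 in both, with adjusted p-values of 0.448 and 0.486 by limma.

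*Stat5a* and *Stat5b* encode closely related factors that are activated by JAK2 and JAK3 downstream of GM-CSF, interleukin 2 and related cytokines. They are immediate neighbours in the genome, with *Stat3* next to *Stat5a* on the other side. The log2 signal of *Stat5a* (NM_011488) in wt BMDM was 10.18, 10.34, 10.17 and 10.18 in medium and 13.19, 14.09, 13.08 and 11.73 after LPS. Without MK2 it was 10.84, 10.75 and 10.28 in medium and 13.96, 14.47, 13.55 and 12.44 after LPS. Without both kinases it was 10.79, 10.64, 10.35 and 10.31 in medium and 14.41, 14.62, 14.13 and 12.69 after LPS. All LPS arrays lay above all medium arrays, and in each genotype LPS replicate 4 was well below the other 3. *Stat5a* rose 6.99-fold in wt (log2 difference 2.81, SE 0.46, limma adjusted p = 0.000167), 7.9-fold in MK2-/- (log2 difference 2.98, SE 0.49, adjusted p = 0.000184) and 10.8-fold in MK2/3-/- macrophages (log2 difference 3.43, SE 0.46, adjusted p = 1.16e-05). Its neighbour *Stat5b* (NM_011489) was at 10.64 ± 0.11 (SD, n = 4) in medium and 10.74 ± 0.32 (SD, n = 4) after LPS in wt BMDM. Its LPS difference was 0.10 (wt), 0.07 (MK2-/-) and 0.24 (MK2/3-/-), with adjusted p-values of 0.814, 0.878 and 0.371 by limma and 95% confidence intervals that ended at 0.48, 0.48 and 0.62. The second probe of *Stat5b* gave differences of 0.01, -0.01 and 0.10.

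The sequences before the start sites of these neighbours, of *Jak2* and of *Stat2* are shown to set the genes that rose beside a neighbour that did not pass. They are the 250 bases before a start site annotated in RefSeq (GRCm38.p6), and were searched on both strands for 2 copies of GAAA with 2 bases of any kind between them, the core of the interferon-stimulated response element (ISRE) that is bound by complexes with STAT2, for TTCNNNGAA, the GAS element bound by STAT dimers, and for the NF-kB motif. The motifs can overlap each other. Among 32851 such windows of all genes, 2.98% held the ISRE core, 7.02% the GAS element and 7.25% the NF-kB motif. The capitals mark the matches. *Stat5a* has an NF-kB match that begins 234 bases before the second of its 2 start sites searched, and *Stat2* has an ISRE core 222 bases before its start. There was no match in the windows of *Jak2* and *Stat5b* shown. As annotated, *Stat5a* begins at base 100859351 of chromosome 11, and *Stat5b*, on the minus strand, has its outer end at base 100859004. No window lay before these ends, so the stretch where the neighbours adjoin was not searched. Of the other members, *Stat4* has an ISRE core 97 bases before the second of its 2 start sites searched. No window of *Jak1*, *Jak3*, *Stat3* or *Stat6* held any of these letters. These matches are descriptions of the sequence and no evidence of binding.
Stat5a, second start, plus strand, chr11:100860234-100860483: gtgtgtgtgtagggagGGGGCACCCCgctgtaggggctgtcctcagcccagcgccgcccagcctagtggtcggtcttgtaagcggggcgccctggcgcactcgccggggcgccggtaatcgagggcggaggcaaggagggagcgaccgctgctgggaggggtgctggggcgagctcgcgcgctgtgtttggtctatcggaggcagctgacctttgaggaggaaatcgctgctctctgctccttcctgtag
Stat5b, minus strand, chr11:100850582-100850831: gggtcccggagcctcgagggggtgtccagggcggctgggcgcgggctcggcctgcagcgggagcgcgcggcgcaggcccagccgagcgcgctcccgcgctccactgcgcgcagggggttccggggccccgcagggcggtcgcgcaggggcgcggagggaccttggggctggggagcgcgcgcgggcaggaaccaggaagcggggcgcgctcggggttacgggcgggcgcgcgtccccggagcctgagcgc
Jak2, plus strand, chr19:29251553-29251802: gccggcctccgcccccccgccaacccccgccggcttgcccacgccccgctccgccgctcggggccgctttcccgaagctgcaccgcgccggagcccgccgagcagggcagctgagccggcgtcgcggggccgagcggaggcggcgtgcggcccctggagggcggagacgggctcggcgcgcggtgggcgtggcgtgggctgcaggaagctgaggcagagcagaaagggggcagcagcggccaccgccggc
Stat2, plus strand, chr10:128270248-128270497: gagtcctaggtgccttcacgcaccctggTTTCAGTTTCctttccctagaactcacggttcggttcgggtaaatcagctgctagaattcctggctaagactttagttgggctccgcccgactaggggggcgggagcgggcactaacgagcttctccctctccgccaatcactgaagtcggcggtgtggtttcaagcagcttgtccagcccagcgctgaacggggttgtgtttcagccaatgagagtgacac

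*Stat2*, *Stat3* and *Stat4* had mean signals that were higher after LPS in all genotypes, but their spread among LPS arrays was wide, and they passed the test in MK2/3-/- BMDM. STAT2 is the factor particular to type I and type III interferon signalling, where it acts together with IRF9. The log2 signal of *Stat2* (NM_019963) in wt BMDM was 11.55, 12.23, 11.85 and 11.30 in medium and 13.04, 13.41, 12.78 and 11.25 after LPS. In MK2/3-/- BMDM it was 12.63, 12.06, 11.71 and 11.88 in medium and 13.89, 14.03, 13.56 and 12.63 after LPS. In MK2-/- BMDM it was 12.56, 12.01 and 11.57 in medium and 13.56, 14.03, 13.00 and 12.16 after LPS. In each genotype LPS replicates 1 to 3 lay above all medium arrays. Replicate 4 did not, and in wt BMDM it lay below all of them. *Stat2* rose 2.75-fold in MK2/3-/- BMDM (log2 difference 1.46, SE 0.45, adjusted p = 0.0201 by limma). The differences in wt (0.89, adjusted p = 0.214) and MK2-/- BMDM (1.14, adjusted p = 0.115) did not pass. Without LPS replicate 4 of the respective genotype they were 1.34 (adjusted p = 0.0252) and 1.48 (adjusted p = 0.0361), and passed. The call in MK2/3-/- BMDM, in turn, was lost without LPS replicate 1 (1.34, adjusted p = 0.0597) or 2 (1.29, adjusted p = 0.068), and without medium replicate 3 (1.34, adjusted p = 0.0606) or 4 (1.39, adjusted p = 0.0509).

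STAT3 is the main factor downstream of interleukin 6 and interleukin 10. *Stat3* was read by a probe for NM_011486, present once on the array, and one for NM_213659, present 10 times. With the former, which had the higher induction in wt BMDM and was therefore used, the signal in MK2/3-/- BMDM was 7.79, 7.46, 7.53 and 7.48 in medium and 9.57, 9.86, 8.36 and 8.15 after LPS. In wt BMDM it was 7.32, 7.54, 7.76 and 7.47 in medium and 8.51, 9.15, 8.66 and 7.25 after LPS. Without both kinases the groups did not overlap, whereas in wt BMDM LPS replicate 4 lay below all medium arrays. *Stat3* rose by 1.42 in MK2/3-/- BMDM (SE 0.37, adjusted p = 0.00674 by limma), a call that was lost with the test named in the methods (adjusted p = 0.0765) and with the replicate number as a block on the compared groups alone (adjusted p = 0.0582). The differences of 0.87 in wt (adjusted p = 0.126) and, without MK2, 0.80 (adjusted p = 0.193) did not pass. Without LPS replicate 4, *Stat3* rose by 1.25 in wt BMDM as well (adjusted p = 0.0116). The probe with 10 spots differed by 0.65 in wt and 0.38 in MK2-/- BMDM, and passed in MK2/3-/- BMDM, too (adjusted p = 0.000631 by limma in the fit of all probes).

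STAT4 is known for signalling of interleukin 12 in T and NK cells. *Stat4* (NM_011487) was between 6.50 and 7.90 in medium and at 7.92 ± 0.67 (SD, n = 4) after LPS in wt BMDM. The corresponding values were 7.90 ± 0.36 (SD, n = 3) and 9.01 ± 0.39 (SD, n = 4) without MK2 and 7.33 ± 0.78 (SD, n = 4) and 8.78 ± 0.64 (SD, n = 4) without both kinases. It rose in MK2/3-/- BMDM by 1.44 (SE 0.41, adjusted p = 0.0137 by limma), while the differences of 0.92 in wt (adjusted p = 0.156) and, without MK2, 1.11 (adjusted p = 0.0989) did not pass. All 4 LPS arrays of MK2-/- BMDM nevertheless lay above all their medium arrays. Without MK2/3-/- LPS replicate 1 the difference in MK2/3-/- BMDM was 1.16 (adjusted p = 0.0599), and without medium replicate 3 it was 1.15 (adjusted p = 0.0611). The call was also lost when only the compared groups were fitted (adjusted p = 0.0685) and with the test named in the methods (adjusted p = 0.11). Together with *Jak1*, *Jak2*, *Jak3*, *Stat5a* and *Stat6*, *Stat4* was higher after LPS in each of the 11 cultures for which both arrays exist, compared with 12.4% of all genes. The smallest change of *Stat4* in a culture was 0.60, and that of *Jak1* 0.01.

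STAT6 mediates the response to interleukin 4 and interleukin 13. The log2 signal of *Stat6* (NM_009284) was 11.97, 12.37, 11.91 and 11.98 in medium and 12.67, 12.68, 12.83 and 12.71 after LPS in MK2/3-/- BMDM. In wt BMDM it was 12.17, 12.14, 12.25 and 11.93 in medium and 12.20, 12.25, 12.52 and 12.28 after LPS. With this probe, the LPS arrays lay close together in each genotype, and their means went up from wt over MK2-/- to MK2/3-/-. Of the 2 probes not used, 1 kept this order of LPS means (7.36, 7.95 and 8.31). The other did not, as its LPS mean was highest without MK2 alone (10.74), ahead of 10.42 without both kinases and 10.31 for wt. *Stat6* rose by 0.67 in MK2/3-/- BMDM (SE 0.12, adjusted p = 0.000385 by limma) and by 0.48 in MK2-/- BMDM (SE 0.13, adjusted p = 0.0132), whereas the difference of 0.19 in wt BMDM did not pass (adjusted p = 0.375). The MK2-/- call was lost without medium replicate 1 (0.41, adjusted p = 0.0792) or 3 (0.44, adjusted p = 0.0604), when only the compared groups were fitted (adjusted p = 0.0609) and with the test named in the methods (adjusted p = 0.0514). The probes of *Stat6* disagreed with each other. The 2 probes not used differed by -0.22 and -0.05 in wt, 0.32 and 0.58 in MK2-/- and 0.67 and 0.33 in MK2/3-/- BMDM, and of these values the 0.67 passed (adjusted p = 0.0467 in the fit of all probes). As the probe used is the one with the highest induction in wt BMDM, the order of the probes in wt is fixed by this choice. The second probe of *Jak3* (NM_001190830) differed by 0.05, 0.04 and 0.48, and did not pass in any genotype.

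**Figure D2:**
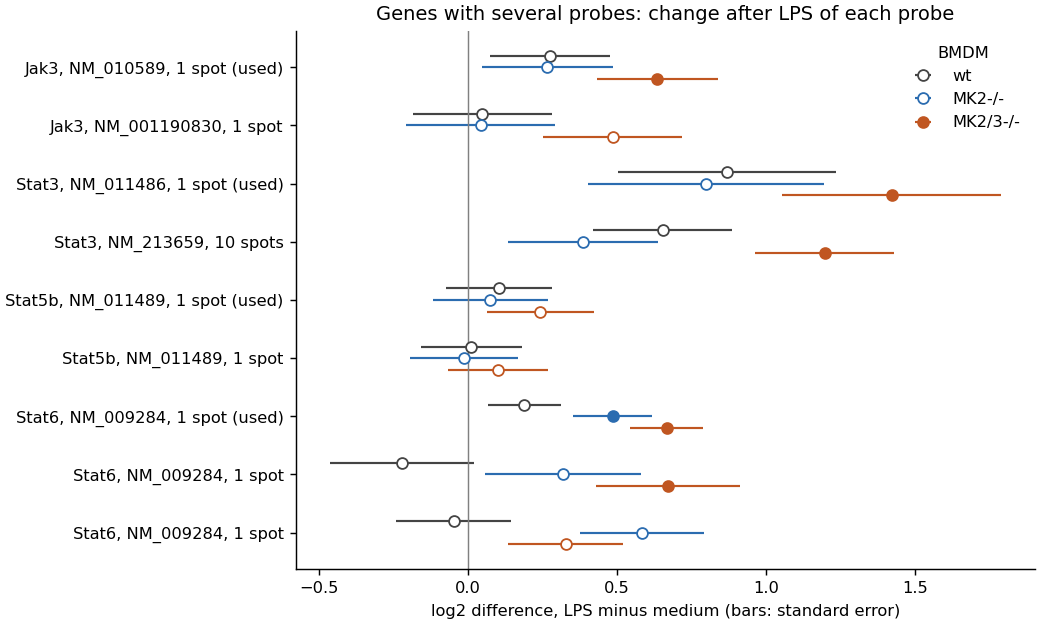
Log2 difference between LPS and medium (x axis) for each probe of the 4 genes with several probes in wt, MK2-/- and MK2/3-/- BMDM, with standard errors as bars and filled points where the adjusted p in the fit of all probes was under 0.05. Both *Stat3* probes lie to the right of 0 in all genotypes, and the *Stat6* probes that were not used lie at -0.22 and -0.05 in wt BMDM.

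In wt BMDM, every LPS array lay above every medium array for 2 of the 9 genes (*Jak2* and *Stat5a*), compared with 11.4% of all genes. In MK2-/- BMDM this held for 6 of 9 genes (16.1% of all genes, with only 3 medium arrays) and in MK2/3-/- BMDM for 5 of 9 (11.8%).

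Between genotypes, no JAK or STAT gene passed the test, neither in medium nor after LPS. In medium, few genes of the whole array passed, i.e. 0.00769% for MK2-/- against wt, 0.0769% for MK2/3-/- against wt and 0.0461% for the knockouts against each other. After LPS, these shares were 0.0308%, 1.64% and 0.161%. In MK2/3-/- BMDM after LPS all 9 genes had a higher mean than in wt BMDM, by 0.26 to 0.94 with a median of 0.60, compared with a median of 0.01 for all genes. Of these differences 2 had an unadjusted p under 0.05 by limma, those of *Jak3* and *Stat6*, compared with 13.6% of all genes. *Jak3* was 7.18, 7.99, 8.02 and 7.76 in wt and 8.66, 8.43, 8.24 and 8.39 in MK2/3-/- BMDM after LPS, a difference of 0.69 (SE 0.20, adjusted p = 0.1 by limma). For *Stat6* the difference was 0.41 (SE 0.12, adjusted p = 0.106). In both genes all 4 MK2/3-/- arrays lay above all wt arrays, which was the case for 2.91% of all genes, and the exact permutation p was 0.0286, the smallest possible. Neither passed the adjustment over all genes. These values are those of the probes used, and no test between genotypes is given for the other probes. After LPS, the second *Jak3* probe had means of 8.47 in wt and 9.01 in MK2/3-/- BMDM. The 2 unused *Stat6* probes had 7.36 and 10.31 in wt and 8.31 and 10.42 in MK2/3-/- BMDM. Normexp background correction brought the difference of *Stat6* past the threshold (adjusted p = 0.0254).

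**Figure D3:**
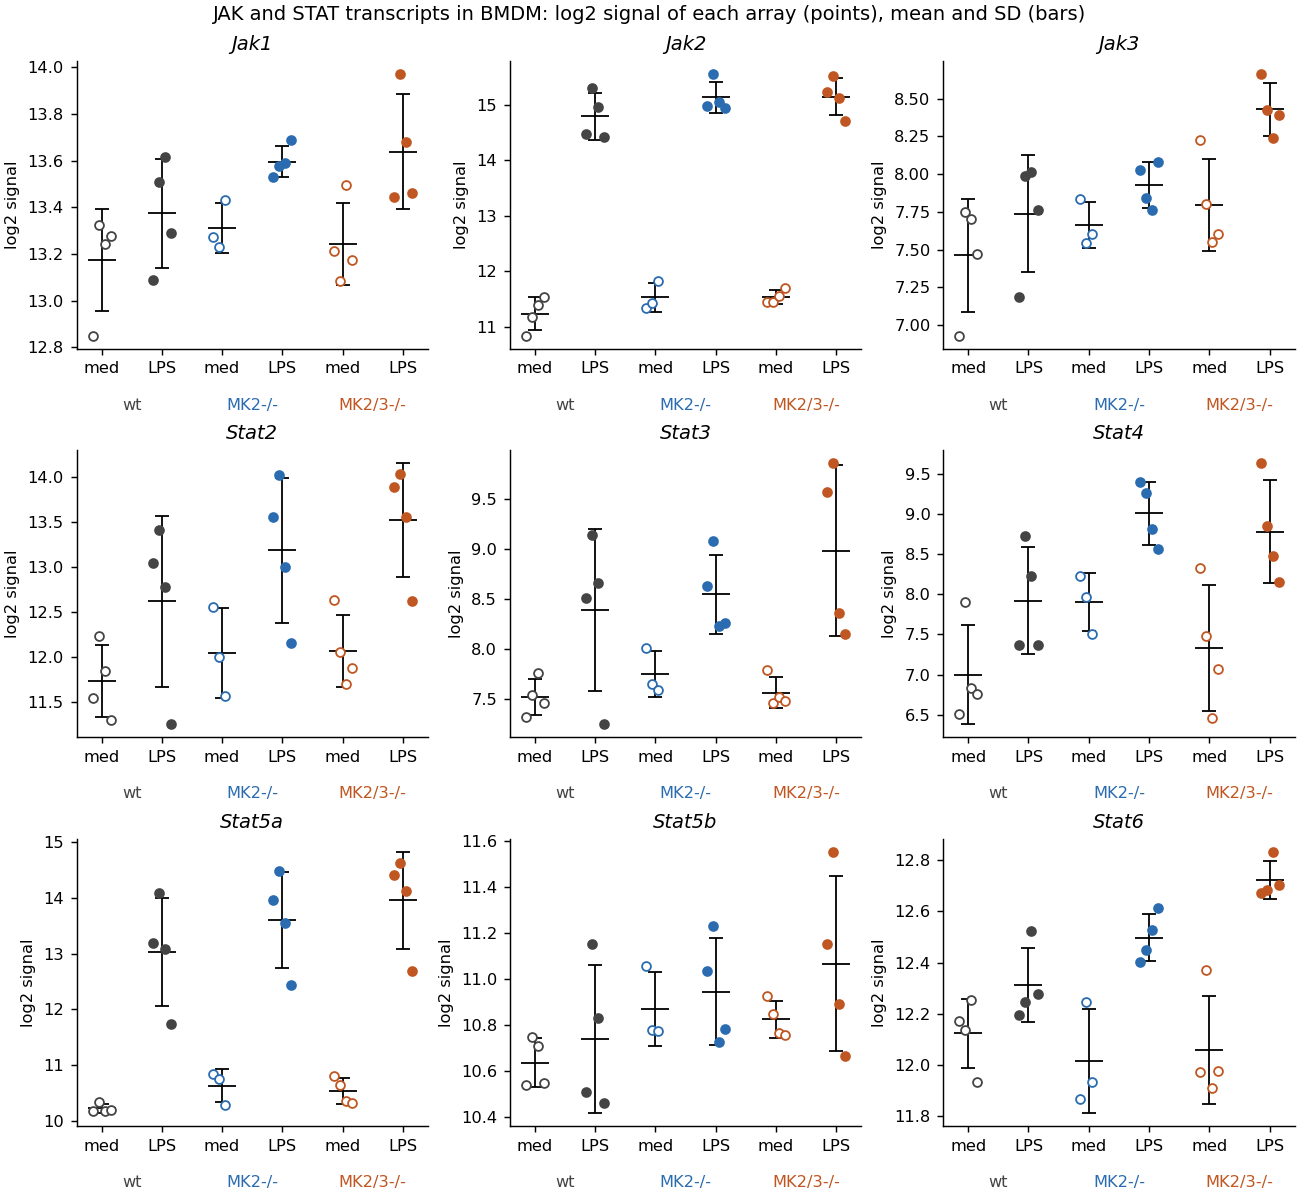
Log2 signal (y axis) of each of the 23 arrays for the 9 JAK and STAT genes, with open points for medium (med), filled points for LPS and black bars for mean and SD of a group. For *Jak2* and *Stat5a* the medium and LPS arrays are fully apart in all genotypes. For the probes used of *Jak3* and *Stat6* the 4 MK2/3-/- LPS arrays lie above the wt LPS arrays.

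For the largest differences after LPS, the intervals were wide. *Stat5a* exceeded its wt level by 0.94 in the absence of both kinases (95% confidence interval -0.02 to 1.90, adjusted p = 0.383 by limma), *Stat2* 0.91 (-0.02 to 1.84, adjusted p = 0.385) and *Stat4* 0.86 (-0.01 to 1.72, adjusted p = 0.376). A doubling in the absence of both kinases thus lies within these intervals, as does no difference. The intervals come from the fit without a replicate block. With LPS arrays matched by replicate number, *Stat5a*, *Stat2* and *Stat4* were each higher in MK2/3-/- than in wt BMDM for every number. These genes were chosen for their large differences in the same arrays. The share of all genes with this pattern was not counted, so it cannot be set against a background. Whether a number marks the same experiment in different genotypes is not known. *Stat4* was also 1.09 higher in MK2-/- than in wt BMDM after LPS (0.22 to 1.95), with an unadjusted p of 0.0169 (7.5% of all genes had one under 0.05) and an adjusted p of 0.594 by limma. For *Jak2*, the corresponding differences were 0.34 (-0.11 to 0.79) and 0.36 (-0.10 to 0.81) for MK2-/- and MK2/3-/- against wt BMDM. In medium, the differences of all 9 genes from wt lay between -0.11 and 0.90 in MK2-/- and between -0.07 and 0.34 in MK2/3-/- BMDM. The medium level of *Stat5b* was higher in all 4 MK2/3-/- arrays (10.76 to 10.93) than in all 4 wt arrays (10.54 to 10.75), with a difference of 0.19 that did not pass (adjusted p = 1 by limma, exact permutation p = 0.0286). The 3 MK2-/- arrays (10.78 to 11.06) lay above the wt arrays as well. The share of all genes without overlap in medium was not counted, so these observations on *Stat5b* cannot be set against a background.

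The response to LPS was then compared directly between genotypes by an interaction term. For none of the 9 genes did it differ past the threshold, and of all genes 0.00384% did for MK2-/- against wt, 0.0115% for MK2/3-/- against wt and 0% for the knockouts against each other. An unadjusted p under 0.05 by limma was found for 0, 1 and 0 of the 9 genes, compared with 1.91%, 4.54% and 2.88% of all genes. The response in MK2/3-/- exceeded that in wt BMDM by 0.05 to 0.63 for the 9 genes, with a median of 0.48 compared with -0.01 for all genes. The response of *Stat6* was 0.48 larger (95% confidence interval 0.12 to 0.84, unadjusted p = 0.0125, adjusted p = 0.873 by limma). That more of the 9 genes passed in MK2/3-/- (7) than in wt BMDM (2) is no test of a difference in response. These comparisons share arrays with the LPS comparisons within each genotype.

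The LPS arrays of a group were not evenly spread for several of the genes. After the values had been seen, it was counted how often the same replicate number was the lowest or the highest LPS array in all 3 genotypes. LPS replicate 4 was the lowest in all genotypes for 4 of the 9 genes, *Jak2*, *Stat2*, *Stat4* and *Stat5a*, compared with 5.17% of all genes. LPS replicate 2 was the highest in all genotypes for 5 of the 9, *Jak2*, *Stat2*, *Stat3*, *Stat5a* and *Stat5b*, compared with 8.19% of all genes. For the 12 LPS arrays the replicate number is also the column on the slide, so that culture and column cannot be told apart. Of the 26 interferon targets described below, 16 were lowest in LPS replicate 4 of all genotypes. *Ifnb1* was not, with 14.58, 15.54, 14.10 and 15.26 in wt, 12.22, 13.08, 12.56 and 14.75 in MK2-/- and 13.46, 13.44, 13.13 and 14.76 in MK2/3-/- BMDM. It was highest in LPS replicate 4 of both knockouts. *Socs1*, which encodes an inhibitor of JAKs, was 13.29, 14.21, 13.90 and 12.02 in wt, 13.32, 13.52, 13.17 and 12.87 in MK2-/- and 15.00, 15.36, 14.96 and 13.31 in MK2/3-/- BMDM, with LPS replicate 4 as the lowest throughout. Summed signals of markers of other cells also differed between the replicate numbers, but not all in the same way. The log2 of the summed lymphocyte signal in LPS replicates 1 to 4 was 11.42, 11.95, 11.61 and 11.20 in wt, 11.68, 12.03, 11.45 and 11.45 in MK2-/- and 13.26, 13.62, 12.62 and 11.52 in MK2/3-/- BMDM. It was highest in replicate 2 of each genotype and lowest in replicate 4 of wt and MK2/3-/- BMDM, while MK2-/- replicates 3 and 4 were about equal. *Lck*, which rose with LPS, made up 46.6%, 54.9% and 83.3% of this sum in LPS replicate 2 and 11.4%, 8.9% and 19.8% in LPS replicate 4 of wt, MK2-/- and MK2/3-/- BMDM, and between 3.26% and 8.17% in medium. The order of this sum therefore does not give the order of the other lymphocyte markers. The granulocyte sum (13.69, 13.68 and 14.07) and the dendritic cell sum (11.15, 10.88 and 11.08) were highest in LPS replicate 2 of each genotype as well. The dendritic cell sum includes *Zbtb46*, which rose with LPS and reached up to 10.86. The order of that sum therefore need not be the order of the other dendritic cell markers. However, the granulocyte sum was lowest in LPS replicate 3 of wt (12.06) and MK2-/- BMDM (11.78), not in replicate 4. The stromal and erythroid sum was highest in LPS replicate 4 of the knockouts (14.98 and 15.58), but in LPS replicate 1 of wt BMDM (16.42). The part of these cells in the pattern was not tested. With the replicate number as a block across genotypes, added after the data were seen, 5 instead of 3 members passed with LPS in MK2-/- BMDM, and *Stat2* was added in wt (adjusted p = 0.0283) and *Jak1* in MK2/3-/- BMDM (adjusted p = 0.0277). When this block was fitted on the compared groups only, the gains of *Stat2* in wt (adjusted p = 0.107) and MK2-/- BMDM (adjusted p = 0.119) and of *Jak1* in MK2/3-/- BMDM (adjusted p = 0.201) were not seen, *Stat6* was lost in MK2-/- (adjusted p = 0.157), and *Stat3* (adjusted p = 0.0582) and *Stat6* (adjusted p = 0.0501) were lost in MK2/3-/- BMDM.

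**Figure D4:**
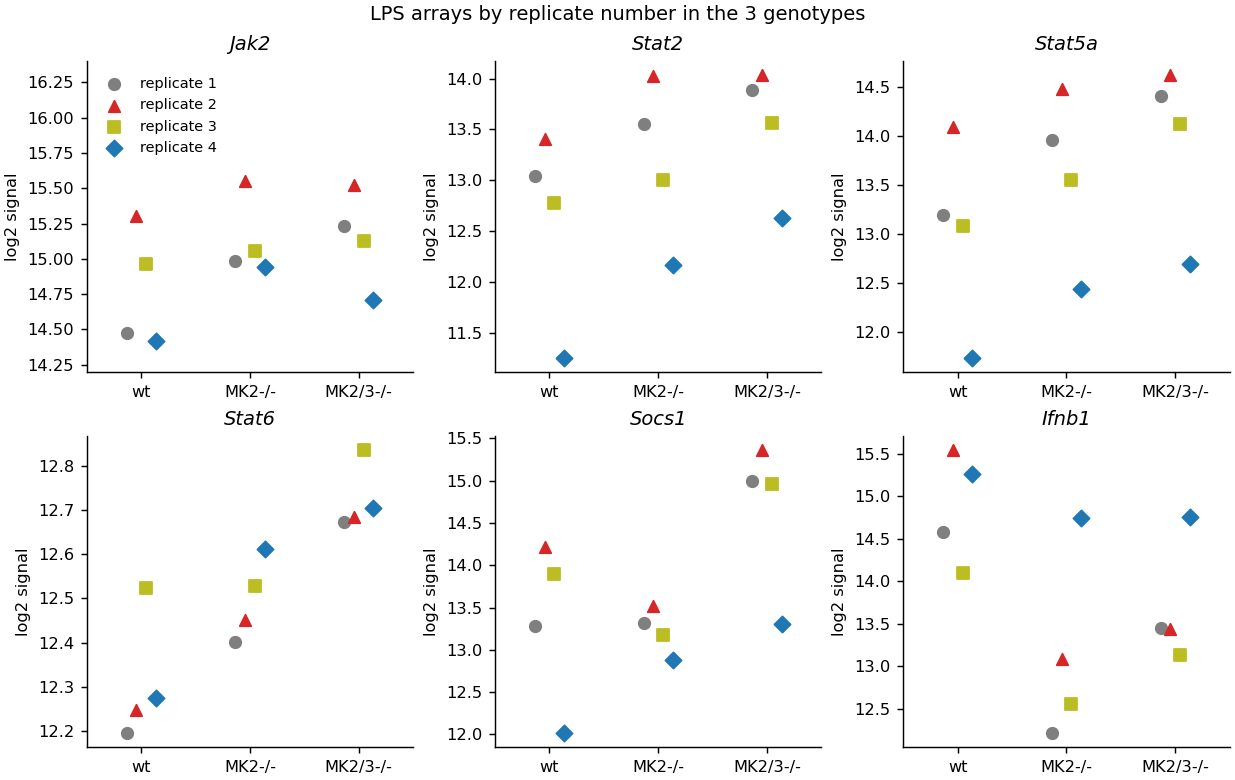
Log2 signal (y axis, not starting at 0) of the 12 LPS arrays for *Jak2*, *Stat2*, *Stat5a*, *Stat6*, *Socs1* and *Ifnb1* by genotype, with colour and shape for the replicate number. LPS replicate 4 is the lowest in all 3 genotypes for *Jak2*, *Stat2*, *Stat5a* and *Socs1*, and the highest in both knockouts for *Ifnb1*.

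Ordered by their means, the groups of *Jak2* and *Stat5a* fell into medium (wt lowest) and LPS (wt lowest, then MK2-/-, then MK2/3-/-), with a gap between the highest medium and the lowest LPS group of 3.25 for *Jak2* and 2.40 for *Stat5a*, and overlap between all other neighbours. For *Jak1*, *Stat2*, *Stat3*, *Stat4* and *Stat5b* every group overlapped with the next. For the probes used of *Jak3* and *Stat6*, only the step from MK2-/- to MK2/3-/- BMDM after LPS, of 0.50 and 0.23, was free of overlap. Among all genes, 2.06% had every MK2/3-/- LPS array above every MK2-/- LPS array.

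The genes with the most similar signal over all 23 arrays are given as a description, as all points share the LPS contrast. The closest to *Jak2* were *Cd40* (r = 0.996) and *Peli1* (r = 0.995), among 11086 named genes well above background on all arrays. *Stat5a* was closest to *Vcpip1* and *Irgm2* (r = 0.991 each), *Stat2* to *Eif2ak2* (r = 0.962) and *Adar* (r = 0.949), which encode RNA-sensing and RNA-editing enzymes, and *Stat3* to the peptide transporter gene *Tap1* (r = 0.972) and *Gm5431* (r = 0.962). For *Stat5b* these were *Trim34b* (r = 0.887) and *Pml* (r = 0.877), for *Stat4* *Rassf4* (r = 0.933) and *Tmem38b* (r = 0.932). *Jak1* was closest to *Ppp6r3* (r = 0.877) and *Egln2* (r = 0.858), *Jak3* to *Atf3* (r = 0.897), and *Stat6* to *Atxn3* (r = 0.903) and *Adprh* (r = 0.898).

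The remaining genes of the pathway show where the 9 genes stand. Of 29 measured genes for ligands of JAK-coupled receptors, 13 rose and none fell in wt BMDM, and 15 rose in each of the knockouts. The shares of all genes that rose and fell, 8.26% and 8.89% in wt, 8.48% and 10.1% in MK2-/- and 11.9% and 12.9% in MK2/3-/- BMDM, are the background of these and the following counts. The median log2 difference of the ligands was 2.40, 2.07 and 2.05 in the 3 genotypes. *Ifnb1*, which encodes interferon β, was well above background on no wt array in medium and rose at least 2772-fold in wt and at least 773-fold in MK2-/- BMDM (lower bounds, for which signals of medium arrays were raised to the lowest signal well above background). *Il6* reached 15.23 ± 1.03 (SD, n = 4) in wt BMDM after LPS. *Il19* rose at least 258-fold and *Csf2*, which encodes GM-CSF, at least 74.1-fold. GM-CSF signals through JAK2 and STAT5.

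Of 40 receptor genes, 6 rose and 3 fell in wt BMDM, 6 rose and 6 fell in MK2-/- BMDM and 9 rose and 5 fell in MK2/3-/- BMDM. The median log2 difference of 0.03 in wt BMDM was close to the 0.01 of all genes, and 3 of 40 falling is no more than the 8.89% of all genes. *Il15ra* rose by 3.24 in wt BMDM (adjusted p = 0.000167 by limma) and *Il4ra*, the receptor chain upstream of STAT6, rose as well (adjusted p = 0.00956), while *Il6ra* fell by 1.67 (adjusted p = 0.000722) and *Il21r* fell by 1.46 (adjusted p = 0.0245). In MK2-/- BMDM the difference of *Il4ra* was 0.64 and did not pass (adjusted p = 0.353), compared with 1.51 in MK2/3-/- BMDM (adjusted p = 0.00637). Its response did not differ past the threshold between genotypes.

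Inhibitors of the pathway included the genes with some of the largest changes, with 9 of 20 rising and 3 falling in wt BMDM, 10 and 3 in MK2-/- BMDM and 13 and 2 in MK2/3-/- BMDM. Their median log2 difference was 0.41, 0.42 and 0.79. *Cish*, *Socs3* and *Socs1* encode SOCS family proteins, which bind receptors or JAKs and end the signal. They rose in wt BMDM by 8.18, 7.85 and 7.48 on the log2 scale (adjusted p = 4.8e-09, 7.99e-14 and 1.75e-09 by limma), by 8.16, 7.28 and 7.11 in MK2-/- and by 9.61, 7.72 and 8.38 in MK2/3-/- macrophages. For *Cish*, 2 of 3 medium arrays of MK2-/- and 2 of 4 of MK2/3-/- BMDM were well above background, so that its values in the knockouts are not exact. *Usp18*, which encodes an inhibitor of the interferon receptor complex, rose by 4.06 in wt BMDM. These log2 differences exceed the 3.55 of *Jak2*, the largest among the JAK and STAT genes in wt BMDM. Of 9 genes for partners and adaptors, 2 rose (*Sh2b2*, *Stam2*) and 2 fell (*Sh2b1*, *Ep300*) in wt BMDM, none rose and 2 fell in MK2-/- BMDM, and 1 rose and 1 fell in MK2/3-/- BMDM, with a median of -0.02 in wt BMDM. *Sh2b1*, which encodes an adaptor that binds JAK2, fell by 1.27 in wt BMDM (adjusted p = 0.000115), fell by 1.38 in MK2-/- BMDM and fell by 1.42 in MK2/3-/- BMDM.

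Of 26 measured interferon targets, 19, 19 and 23 rose in wt, MK2-/- and MK2/3-/- BMDM, respectively, and the list had median log2 differences of 3.77, 4.08 and 4.61. *Gbp5* rose by 8.23, *Cxcl9* by 8.04, *Cxcl10* by 7.61 and *Rsad2* by 7.44 in wt BMDM. There *Cxcl9* was well above background on 2 of 4 medium arrays, so that its value is not exact. Of 18 targets of STAT3 and STAT5, 11, 10 and 10 rose, led by *Pim1* (5.21) and *Il1rn* (4.93), followed by *Ccnd2* (2.82) and *Nfil3* (2.76) in wt BMDM. Of 14 targets of STAT6, 4 rose in wt BMDM, namely *Ccl22* (7.55), *Ccl17* (6.13), *Tfec* (5.01) and *Ccl24* (1.72), while the median of this list was 0.22. *Ccl22* was well above background on only 1 of 4 wt medium arrays, so that its value is not exact and its place in this order is open. In MK2-/- BMDM 4 rose and 1 fell, and in MK2/3-/- BMDM 5 rose.

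**Figure D5:**
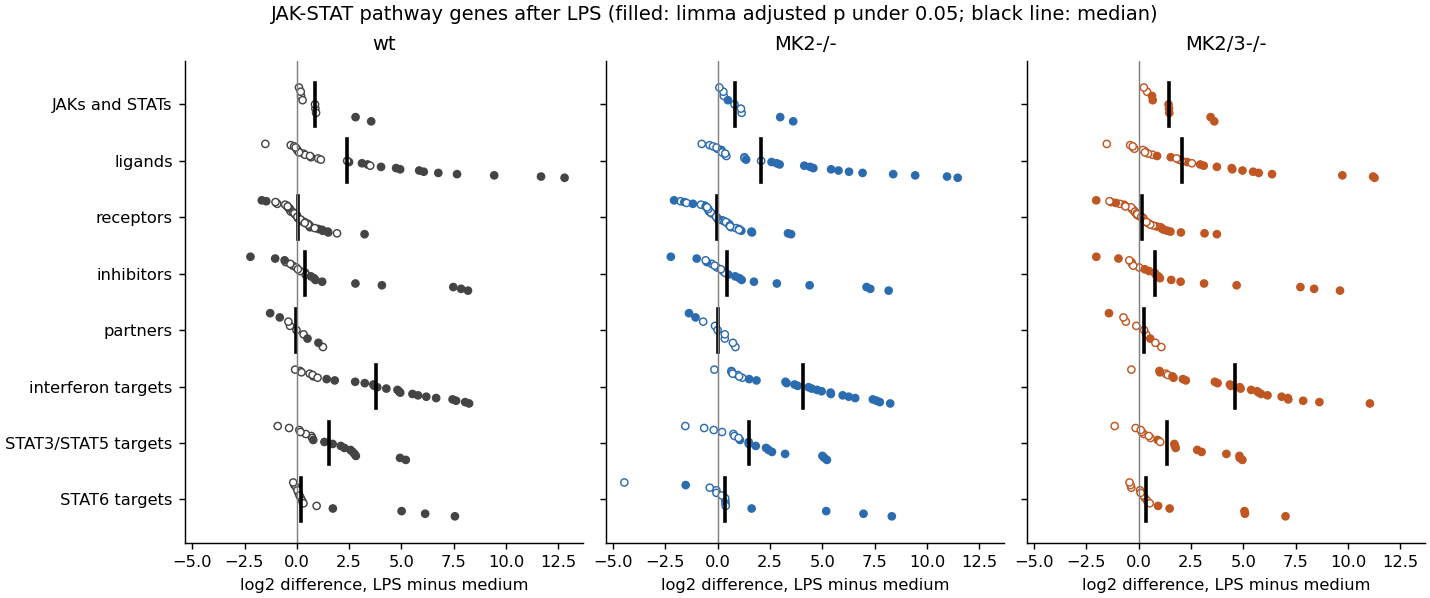
Log2 difference between LPS and medium (x axis) of the single genes of each list in wt, MK2-/- and MK2/3-/- BMDM, with filled points where the limma adjusted p was under 0.05 and black lines at the median of a list. Some of the largest values, such as that of *Ifnb1* in wt BMDM, stand against medium signals not well above background and are not exact. The medians of the interferon targets (3.77, 4.08 and 4.61) lie above those of the JAK and STAT genes (0.87, 0.80 and 1.42).

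Few genes of these lists differed between genotypes. After LPS, the absence of both kinases left *Il10* below its wt level (log2 difference -3.22, SE 0.47, adjusted p = 0.00158 by limma), as well as *Il2* (-3.06, SE 0.63, adjusted p = 0.0192). *Irf8*, which encodes an interferon regulatory factor, was higher (2.09, SE 0.47, adjusted p = 0.0307), although the groups overlapped. Beyond the naming rule, *Il23a* was lower and *Il10ra* and *Nfil3* were higher in this comparison. *Il23a* also had a lower signal after LPS in MK2/3-/- than in MK2-/- BMDM (-1.86, SE 0.36, adjusted p = 0.0408). In these comparisons 427 and 42 genes of the whole array passed, without any of the 9 JAK and STAT genes.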

How the data were processed

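Total RNA of BMDM was measured on 23 single-colour Agilent arrays. The spot intensity values were deposited by the authors as written by Agilent Feature Extraction 11.0.1.1, i.e. background-subtracted and detrended within each array, not normalized between arrays. The authors also deposited log2 values, quantile-normalized and set to the median of each probe. These correlated with the values used here (r = 0.999947) and served as an alternative. The methods name a floor of 5 and a t-test, both of which were run as alternatives.

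Here, the intensities of 59305 non-control spots per array were taken as log2 and quantile-normalized in R 4.3.3. Outlier-flagged spots were left out (112 missing values in all), and spots of a probe were averaged. Of 55681 probes, 32885 carried an accession and gave 26014 genes, 20886 of them with a symbol. Where a gene had several probes, the one most induced by LPS in wt cells was used, as the methods describe. One model with 6 groups was fitted with limma 3.58.1, and 12 comparisons were tested. The fit was tested on simulated data. Named were all members, for each the 2 genes with the most similar signal, and from each pathway list the 4 genes with the largest change in wt BMDM and the 3 with the largest change between genotypes among those past the threshold and well above background, except for a gene that is not reported here. The members, the lists and the tests were chosen with earlier results of these data known. Promoter windows came from RefSeq (GRCm38.p6), and no coordinates of the arrays were used.

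Arrays were paired as cultures by replicate number and age, with the third MK2-/- medium array paired to LPS replicate 4 by age. Deviations from the group means correlated within 11 pairs with r between 0.0657 and 0.566 (median 0.256), and 10 were over 0.1. This pairing is inferred, and the culture was used as a block only as an alternative. The alternatives, 34 with this block among them and 3 more chosen after seeing the data, changed normalization, background, floor, probe choice, test, pairing or the arrays used.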

Additional observations from a re-analysis of the deposited data

Results flagged for a closer look

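Within groups of 4 arrays, 2 of 45 combinations of a gene and a group had an array far from the other 3, compared with about 1 in 20 by chance. *Stat5a* in wt BMDM in medium was 10.34 in replicate 2, with the other 3 arrays between 10.17 and 10.18. *Stat6* in MK2/3-/- BMDM in medium was 12.37 in replicate 2, with the other 3 arrays between 11.91 and 11.98. The latter array also had the highest share of probes well above background, 69.1%.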

How the results depend on the processing

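*Jak2* and *Stat5a* rose with LPS in all 3 genotypes under each of the 37 alternatives. Over 19 combinations of a gene and a comparison, 654 values kept direction and side of the threshold, 25 gained the call, 24 lost it and 0 reversed. Leaving out single arrays gave 2 to 4 members called with LPS in wt BMDM, 2 to 4 in MK2-/- BMDM and 5 to 8 in MK2/3-/- BMDM, and 0 in each of the 9 other comparisons. The wt value of 4 was reached without wt LPS replicate 4. In MK2-/- BMDM 5 members passed with the replicate block for the culture, and 5 with the replicate block for the number across genotypes, which was chosen after seeing the data. With the t-test of the methods after Benjamini-Hochberg adjustment, 4 instead of 7 passed in MK2/3-/- BMDM. Normexp background correction gave 1 member (*Stat6*) for MK2/3-/- against wt BMDM after LPS. The replicate block for the culture added *Stat2* and *Stat4* in MK2-/- and *Jak1* in MK2/3-/- BMDM and changed no other call of a member. The cause of these changes was not tested. Scaling to the 75th percentile shifted the median of all genes for LPS by 0.12 in wt and 0.19 in MK2-/- BMDM, for MK2/3-/- against wt BMDM by 0.15 in medium and 0.14 after LPS, and for MK2/3-/- against MK2-/- BMDM by 0.17 in medium and 0.13 after LPS. *Stat3* then passed in wt BMDM (0.92, adjusted p = 0.0283 by limma). All probes of the members were well above background on all arrays.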

Other observations

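*Cd14*, which encodes an LPS co-receptor, rose with LPS by 2.04, 1.79 and 1.66 in wt, MK2-/- and MK2/3-/- BMDM, while *Fcgr1* fell by 1.27 and *Mertk* fell by 1.69 in wt BMDM. The summed signal of the dendritic cell markers had a median log2 of 7.10 in medium and 10.26 after LPS in wt BMDM. Of these 6 genes only 2 rose there, *Zbtb46* by 5.49 and *Ccr9* by 2.46, and the median log2 difference of the list was 0.65. *Nfil3*, a STAT target, differed by 2.76 between LPS and medium in wt and by 4.19 in MK2/3-/- BMDM. *Ccnd2* differed by 2.82 in wt cells, by 5.00 without MK2 and by 4.95 without both kinases. *Cxcl9* differed by 8.04 in wt and 11.04 in MK2/3-/- BMDM, with 2 of 4 and 3 of 4 medium arrays well above background, so that these values are not exact. None of these 3 responses differed past the threshold between genotypes by limma.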
